A study of Homo sapiens with 6 samples.

Results

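The 7 loci described here carry genes that build, load, release and position cohesin: NIPBL and MAU2, RAD21, SMC3 and STAG1, WAPL, and CTCF. Open chromatin was profiled with ATAC-seq, in which a transposase cuts and tags accessible DNA, in 22Rv1 cells, a line established from a human prostate carcinoma. Libraries were labelled FOXA1_dTAG at 0 h, which is the baseline, at 1 h or at 24 h, with 2 libraries per time. All 6 libraries share the tag label, and no untagged library was analysed. FOXA1 is a forkhead pioneer factor that opens chromatin in the prostate epithelium, and dTAG stands for a degron fused to it so that an added ligand can have the protein destroyed. No ligand, dose or clone is named in the labels, which do not say whether replicates were separate cultures, and the loss of FOXA1 protein is not measured in these files. The spread between replicates may therefore be technical.

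The members are the ATAC-seq peaks that fall in 7 hg19 windows, each centred on 1 of the genes with flanks of about 50 kb (31.0 kb at MAU2). Peaks of the 6 lists that overlapped by at least 1 bp were merged into regions, of which 112 lay in the windows, of 167726 on the autosomes and X. The question was whether promoter sites and sites inside the genes behaved alike over time. No hg19 gene annotation was used, so each gene body was inferred as the window narrowed equally at both ends to the gene length in the RefSeq table, and exons and introns are not separated. The promoter is the region nearest to the inferred 5′ end within 3 kb. This gave 7 promoters, 46 gene-body regions, 23 upstream and 36 downstream regions, and positions below are kb from the inferred 5′ end along the gene.

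Cohesin is a ring of SMC proteins closed by RAD21 and bound by a STAG subunit, and it holds sister chromatids together and extrudes chromatin loops. NIPBL with its partner MAU2 loads cohesin and drives extrusion, WAPL releases it from chromatin, and CTCF is the DNA-binding zinc-finger protein at which extruding cohesin stops. These genes are broadly expressed, and promoters of such genes are usually CpG-rich. In prostate cells FOXA1 acts mainly at distal enhancers, many of them in introns, so promoter and intronic sites of 1 gene can be compared side by side.

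RefSeq promoter sequences (GRCh38.p14, 250 bases before to 50 after the gene start) matched 6 of the 7 genes, all but RAD21. The NIPBL, MAU2 and CTCF promoters are printed because each holds the short CTCF core AGGNGGC, and NIPBL and CTCF also hold, in the gene body, the strongest lost site and the single site past the strength test described below. Capitals mark matches, on either strand, to the motifs searched, which were AGGNGGC, the SP box GGGCGG, the ETS motif CCGGAAG, the CCAAT box, the NRF1 motif and the forkhead motifs TGTTTAC and TGTTTGC. They lie at chr5:36876519-36876818 (plus strand, NIPBL), chr19:19320579-19320878 (plus strand, MAU2) and chr16:67562276-67562575 (plus strand, CTCF).
NIPBL: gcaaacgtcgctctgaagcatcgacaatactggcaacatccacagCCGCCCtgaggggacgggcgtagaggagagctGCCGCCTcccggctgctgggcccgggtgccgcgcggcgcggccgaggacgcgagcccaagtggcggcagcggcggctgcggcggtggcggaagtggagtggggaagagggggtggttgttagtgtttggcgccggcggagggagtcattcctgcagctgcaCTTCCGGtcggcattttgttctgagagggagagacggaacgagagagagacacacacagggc
MAU2: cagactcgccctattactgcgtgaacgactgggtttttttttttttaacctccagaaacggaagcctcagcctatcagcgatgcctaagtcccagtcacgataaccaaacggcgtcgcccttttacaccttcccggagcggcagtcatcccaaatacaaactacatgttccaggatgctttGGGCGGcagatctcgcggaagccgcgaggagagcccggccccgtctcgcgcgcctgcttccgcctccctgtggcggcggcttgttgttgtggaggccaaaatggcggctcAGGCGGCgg
CTCF: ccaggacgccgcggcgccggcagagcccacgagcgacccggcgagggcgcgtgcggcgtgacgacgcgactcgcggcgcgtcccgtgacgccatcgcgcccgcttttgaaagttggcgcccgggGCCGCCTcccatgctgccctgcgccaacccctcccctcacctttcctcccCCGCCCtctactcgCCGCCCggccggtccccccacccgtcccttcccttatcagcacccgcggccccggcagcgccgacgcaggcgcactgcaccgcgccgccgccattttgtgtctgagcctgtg
In the NIPBL sequence the capitals are an SP box and the CTCF core, both read on the opposite strand, and an ETS motif on the opposite strand. The MAU2 sequence holds an SP box and, near its end, the CTCF core on the plus strand. The CTCF sequence holds the CTCF core and 2 SP boxes, all on the opposite strand.

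The SP box was present in 6 of 6 promoters, against 45.0% of 35116 RefSeq promoters of the same length. The CTCF core was present in 3 of 6, against 35.9% of all promoters, and CCAAT in 2 of 6, those of STAG1 and WAPL, against 34.6%. The ETS motif was found only in NIPBL among these 6, and 10.3% of all promoters hold it. Neither forkhead motif was found in any of the 6, where 3.42% (TGTTTAC) and 3.89% (TGTTTGC) of all promoters hold one. The NRF1 motif was also found in none, against 1.24%. CpG counts per 300 bases were 30 in NIPBL, 27 in MAU2, 23 in SMC3, 37 in STAG1, 44 in WAPL and 46 in CTCF, each above the median of 14 over all promoters. These matches describe letters in a window, and the GRCh38.p14 positions were not carried over to the hg19 peaks.

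The 6 lists held 101755 to 125396 peaks, and the relative depth recovered from each list was 10.4 and 8.24 tags per kb at 0 h, 8.14 and 8.62 at 1 h, then 7.33 and 7.04 at 24 h. By this estimate both 24 h libraries were the shallowest. The number of window regions was 74 and 72 at 0 h, 72 and 72 at 1 h, then 58 and 74 at 24 h. The first 24 h library stood apart with the fewest. Mean counts were 73 ± 1.41 at 0 h, 72 ± 0 at 1 h, then 66 ± 11.3 at 24 h (SD, n = 2 each). The exact two-sided permutation p was 1 for each pair of times, and 2 against 2 libraries cannot go below 0.333. Without the first 24 h library, the 24 h count was 1 region above the 0 h mean instead of 7 below it, and 2 above the 1 h mean instead of 6 below it.

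The share of regions seen at all times was highest for promoters. All 7 promoters held a peak in all 6 libraries, as did 10 of the 46 gene-body regions, 10 of the 23 upstream regions and 17 of the 36 downstream regions. Over the whole series, 43.3% of regions had a peak in all 6 libraries. Promoters were strong at 0 h, with mean 0 h percentiles of 68.4 to 91.2 within their own lists. Of all regions in both 0 h lists at or above the lowest of these, 93.7% were also kept in all 6 libraries, so a peak at all times was usual for regions of that strength. Gene-body regions came to 25 and 25 at 0 h, 26 and 22 at 1 h, then 16 and 25 at 24 h. Their means were 25 ± 0 at 0 h, 24 ± 2.83 at 1 h, then 20.5 ± 6.36 at 24 h (SD, n = 2 each), with exact permutation p values of 1 for either time against 0 h and 0.667 for 24 h against 1 h.

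**Figure D1:**
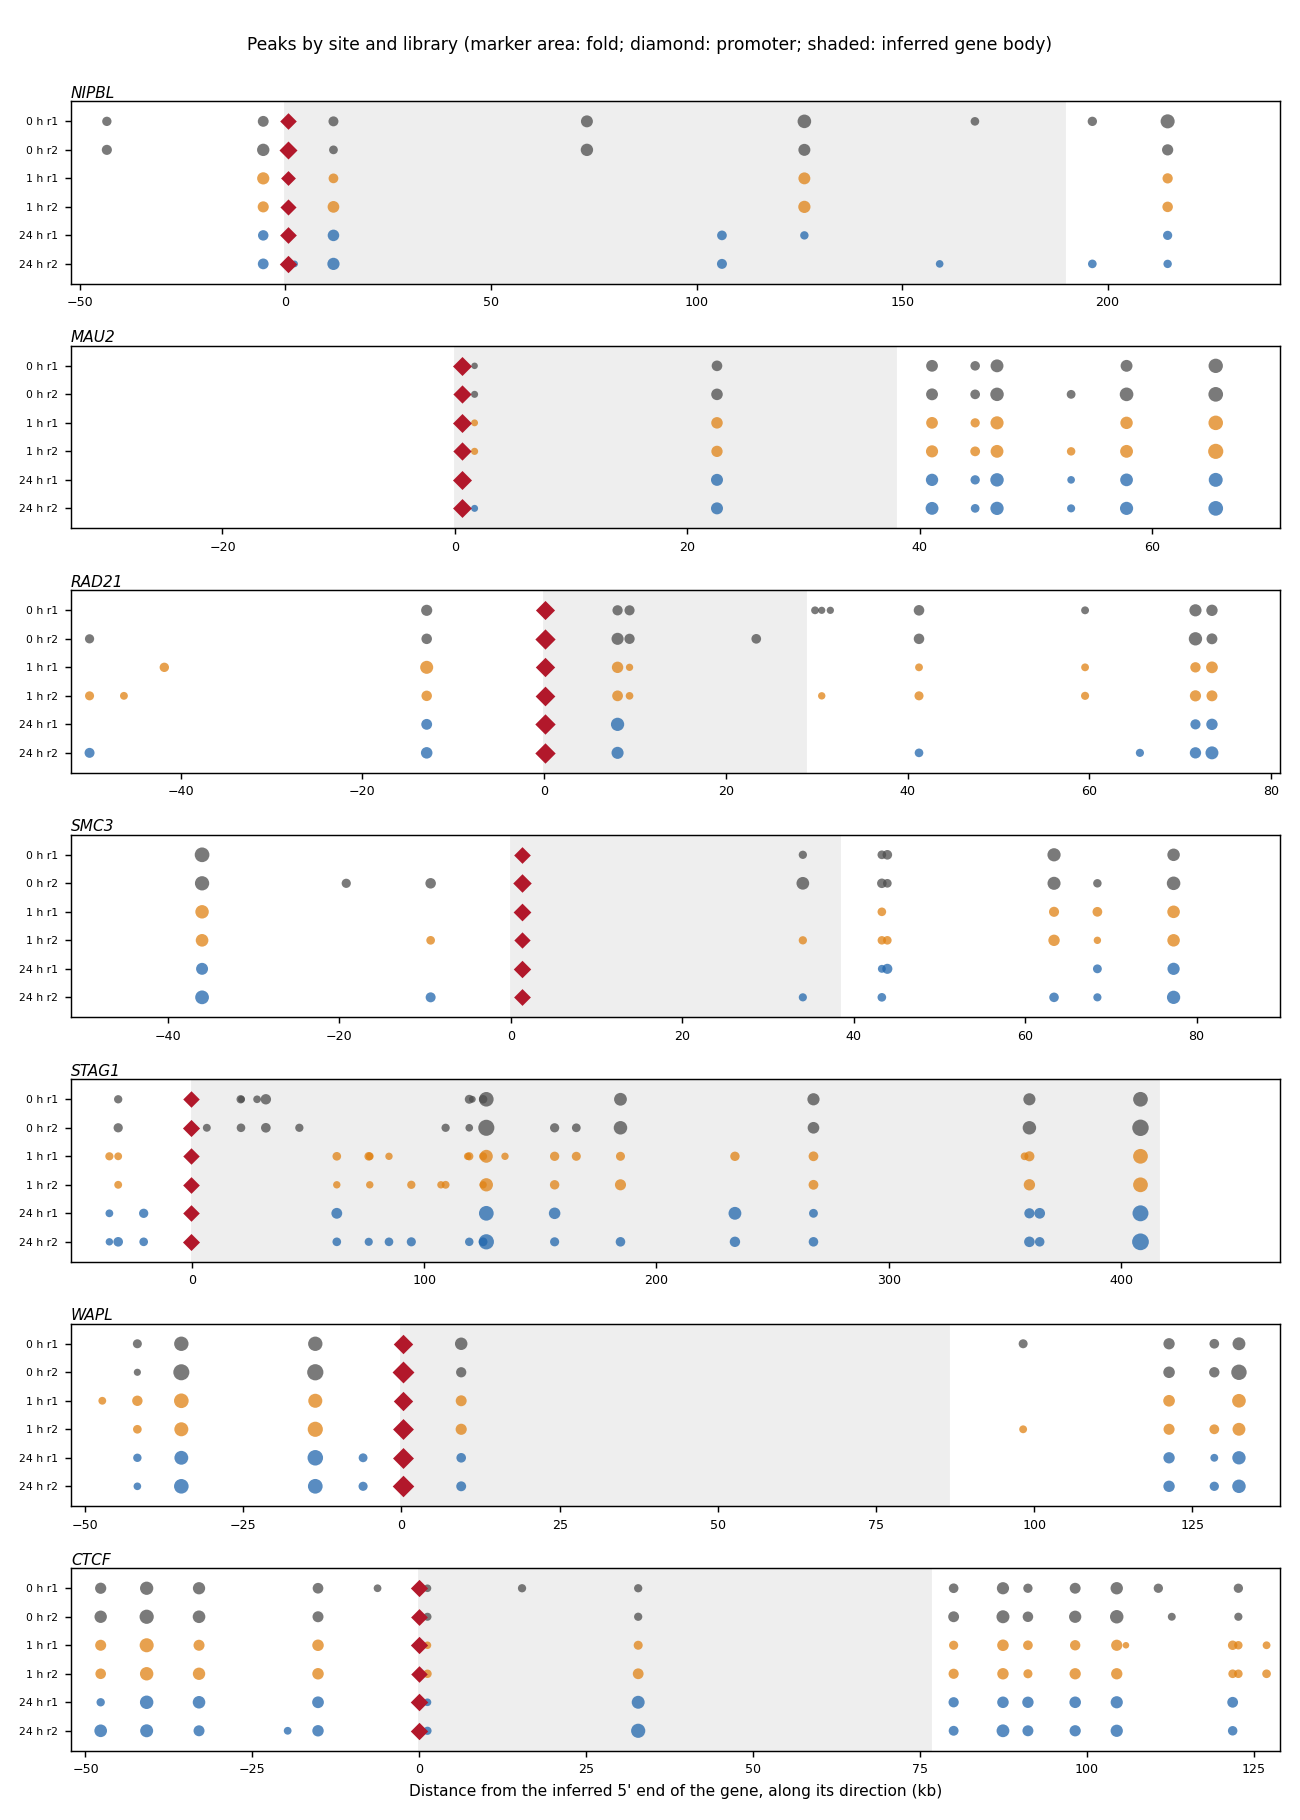
Peaks in the 7 windows by library. The x axis is the distance from the inferred 5′ end in kb, each row is 1 library from 0 h at the top to 24 h at the bottom, marker area follows the authors' fold, red diamonds are promoters, and grey shading is the inferred gene body. The 7 promoters run through all 6 rows, while 11 of the 29 STAG1 gene-body regions appear in a single row.

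Gene-body sites seen in 1 library only were weak. These 16 regions had folds of 2.77 to 5.74 (median 3.65), where the fold is the authors' enrichment of summit reads over local background, a ratio. The 20 gene-body regions in 2 to 5 libraries had a median fold of 4.93 over their peaks, and the 10 held by all 6 libraries had 7.96. Promoters were also broader: the median promoter width in a library was 1347 to 1475 bp, against 310 to 497 bp for gene-body regions held by all 6.

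The genes differed in how many sites they carried inside the gene. STAG1, the longest gene here at 416 kb, had 29 gene-body regions (6.97 per 100 kb), 4 of them in all 6 libraries. NIPBL had 7 (3.69 per 100 kb) with 1 in all 6, and CTCF had 3 (3.91 per 100 kb) with 2 in all 6. RAD21 had 3 in a gene of 28.8 kb (10.4 per 100 kb), MAU2 2 (5.27), SMC3 1 (2.61) and WAPL 1 (1.16). The flanks belong in part to other genes, named here from the GRCh38.p14 table. CPLANE1 neighbours NIPBL, SUGP1 and GATAD2A neighbour MAU2, RBM20 neighbours SMC3, and PCCB neighbours STAG1. CTCF has 7 protein-coding neighbours, among them RIPOR1, CARMIL2 and GFOD2. Their starts were not placed in hg19, so flank regions may include promoters of these genes.

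Promoter strength was compared as the percentile of the fold among the 72695 regions with a peak in all 6 libraries, because folds of different lists are not on 1 scale. The test used normal scores of these ranks, that is ranks turned into standard normal values, in limma over all 72695 regions, with Benjamini-Hochberg adjustment. None of the 7 promoters passed at a limma adjusted p of 0.05 in any comparison, and 0 had an unadjusted p under 0.05.

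The loader genes NIPBL and MAU2 kept their promoter peaks at all times. NIPBL's promoter (chr5:36875907-36877773) had folds of 8.46 and 9.95 at 0 h, 6.74 and 7.96 at 1 h, then 8.57 and 9.27 at 24 h. Its percentiles were 55.6 and 60.7 at 0 h, 38.1 and 48.0 at 1 h, then 55.2 and 61.6 at 24 h, so both 1 h libraries lay below the other 4. At 1 h against 0 h the normal-score difference was −0.38 ± 0.24 (SE, 95% interval −0.94 to 0.17, limma adjusted p = 0.577), and at 24 h against 0 h it was 0.01 ± 0.24 (adjusted p = 0.995). NIPBL was the promoter with the largest 1 h difference in percentile of the 7, and that difference did not exceed the spread of these libraries by the test.

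MAU2's promoter (chr19:19430870-19432348) had folds of 11.1 and 10.2 at 0 h, 11 and 10.3 at 1 h, then 11.1 and 10.9 at 24 h. The 3 times overlapped in percentile, at 78.6 and 62.8, at 80.9 and 72.2, and at 77.5 and 75.4. The gap between the 2 libraries at 0 h was wider than any difference between times.

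Among the ring and ring-bound subunits, RAD21's promoter (chr8:117886315-117887344) had folds of 11.2 and 12.6 at 0 h, 11.5 and 11.9 at 1 h, then 12.7 and 12.7 at 24 h. Its percentiles were 79.8 and 80.9 at 0 h, 84.1 and 84.1 at 1 h, then 87.1 and 86.6 at 24 h, without overlap between times. The 24 h against 0 h difference was 0.27 ± 0.23 on the normal-score scale (SE, 95% interval −0.26 to 0.79, limma adjusted p = 0.604). By fold over local background, RAD21 was the 1 gene of the 7 whose promoter was the highest-ranked region of its window. That order depends on the scale. By pileup at 0 h, the promoters of NIPBL, SMC3, STAG1, WAPL and CTCF exceeded the highest-ranked region of their windows in both libraries. At NIPBL these pileups were 97 and 72 against 22 and 17. MAU2's promoter did not exceed its own (118 and 70 against 120 and 91). The called peak of the RAD21 promoter was 399 to 1027 bp wide across the libraries.

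SMC3, an ATPase subunit of the ring, had its promoter region at chr10:112326815-112328349. Its folds were 8.54 and 10.5 at 0 h, 9.65 and 8.18 at 1 h, then 9.35 and 8.68 at 24 h. The percentiles overlapped at all times. STAG1, the HEAT-repeat subunit, had the steadiest promoter of the 7 (chr3:136470200-136472382), with folds of 8.38 and 9.0 at 0 h, 8.32 and 8.55 at 1 h, then 8.44 and 8.91 at 24 h. Its percentile stayed between 51.4 and 58.0 in the 6 libraries.

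WAPL, the release factor, had the promoter with the highest mean percentile at each time (chr10:88280704-88282349), with folds of 11.6 and 14.7 at 0 h, 11.5 and 13.4 at 1 h, then 13.5 and 14.3 at 24 h. The percentiles were 82.4 and 90.7 at 0 h, 84.1 and 91.3 at 1 h, then 90.2 and 92.8 at 24 h, and the times overlapped. CTCF's promoter (chr16:67595527-67596793) had folds of 9.15 and 8.66 at 0 h, 9.19 and 8.43 at 1 h, then 9.44 and 9.30 at 24 h, with percentiles that overlapped as well.

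**Figure D2:**
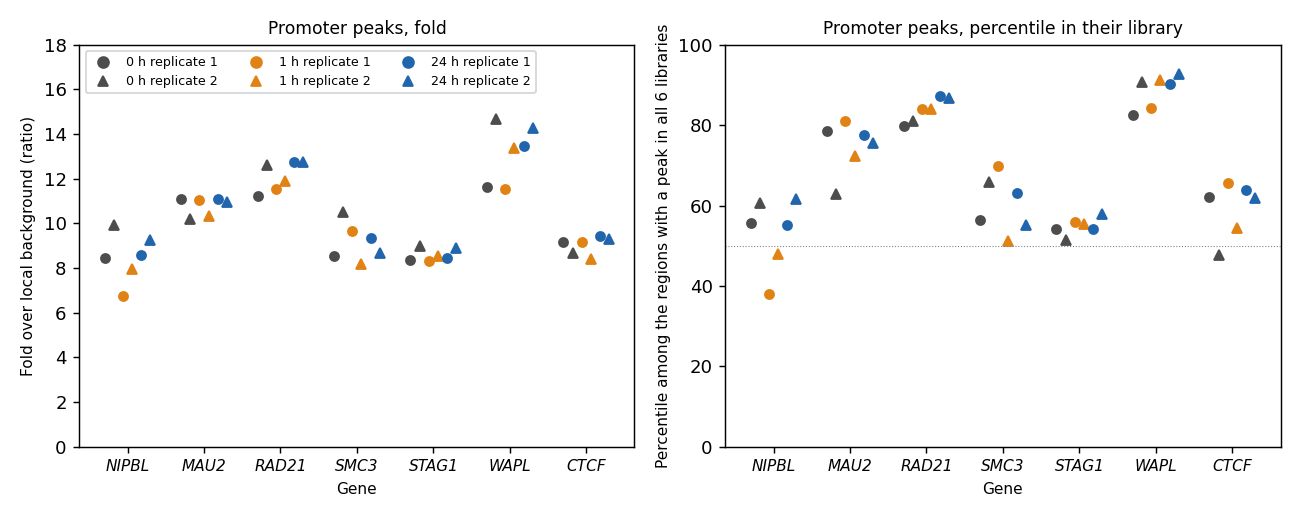
Promoter peaks of the 7 genes in every library. The left panel gives the authors' fold and the right panel the percentile among the 72695 regions common to all libraries, with grey for 0 h, orange for 1 h, blue for 24 h, circles for replicate 1 and triangles for replicate 2. NIPBL at 1 h (38.1 and 48.0) lies below its other libraries, and STAG1 stays between 51.4 and 58.0.

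Across the 7 promoters, the mean percentile was higher at 24 h than at 0 h for 6 and lower for 1 (SMC3), with a median difference of 4.92 percentage points and a range of −1.88 to 7.89. The median over all common regions was 0.40. When the −log10 q was ranked in place of the fold, the 24 h difference turned negative for NIPBL (−0.15) and WAPL (−0.03 on the normal-score scale), so the direction of those promoters was not stable. Nor was it for NIPBL, MAU2 and SMC3 when 1 library was left out: without the second 0 h library MAU2 was at −0.07 and SMC3 at 0.07. Both 24 h libraries ranked above both 0 h libraries at 2 promoters, RAD21 and, by a small margin, STAG1, and at 25.9% of all common regions. No promoter lay wholly below, against 22.1%. At 1 h against 0 h, RAD21 and STAG1 lay wholly above (22.5% of common regions did) and NIPBL wholly below (20.5%). At 24 h against 1 h, NIPBL and RAD21 lay wholly above (23.0%), and none lay wholly below (20.9%).

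Gene-body sites held at all times had larger differences in rank between times than promoters had. At 24 h against 0 h, the 10 gene-body regions held by all 6 libraries had a median absolute difference of 24.4 percentage points, from −37.7 to 72.6. The same value was 4.92 for the 7 promoters, 6.14 for the 27 flank regions and 8.31 for all common regions. At 1 h against 0 h it was 13.1 for the gene-body regions, 3.76 for promoters, 6.06 for flanks and 6.99 for all common regions. The ranges at 1 h were −29.7 to 21.8 for gene-body regions and −15.1 to 5.86 for promoters. The signed median was small in each class (2.51 for gene body, −2.81 for flanks at 24 h), since 6 gene-body regions were higher and 4 lower. With 10 regions in 6 of the genes, 4 of them in STAG1, these values describe the regions and were given no test as a class. Promoter peaks also rested on more reads, with summit pileups of 57 to 148 (median 87.5), against 7 to 87 (median 23.5) in these gene-body regions, and the part of read number in the difference was not tested.

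**Figure D3:**
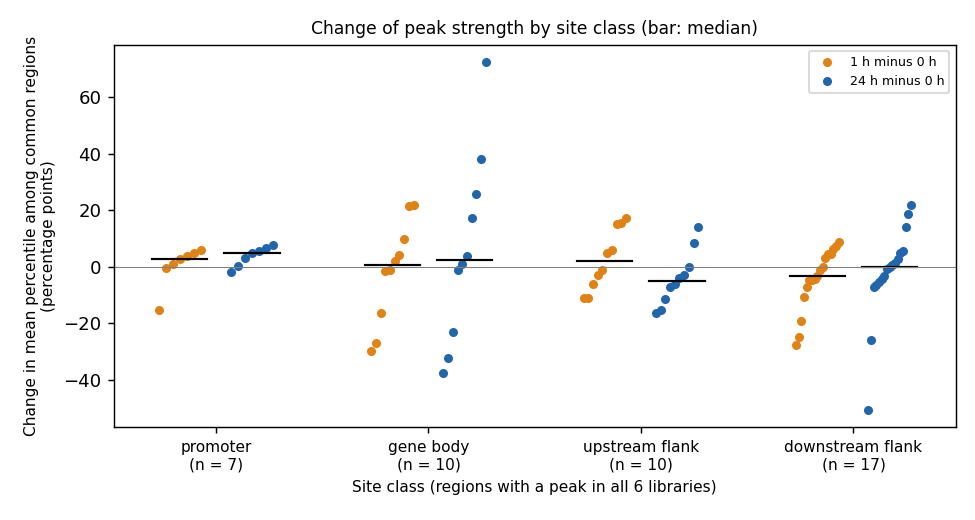
Difference in mean percentile from 0 h for the 44 window regions held by all 6 libraries, in percentage points, by site class. Orange points are 1 h minus 0 h, blue points are 24 h minus 0 h, and bars are medians. The 7 promoters lie within −1.88 to 7.89 at 24 h, while the 10 gene-body regions spread from −37.7 to 72.6, the latter at CTCF +32.8 kb. At 1 h the promoters lie within −15.1 (NIPBL) to 5.86 and the gene-body regions within −29.7 to 21.8.

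A single site inside CTCF became stronger at 24 h. The region at +32.8 kb (chr16:67628640-67629261) had folds of 4.20 and 4.18 at 0 h, 5.00 and 7.15 at 1 h, then 10.3 and 12.4 at 24 h. The pileups at the summit, recovered from the fold and the −log10 p, were 10 and 7 at 0 h, 11 and 16 at 1 h, then 24 and 27 at 24 h. The pileups did not overlap between the 3 times, and both 24 h libraries had the higher pileups at a lower relative depth. Its percentile was 6.75 and 4.22 at 0 h, 15.1 and 38.7 at 1 h, then 71.4 and 84.7 at 24 h.

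This was the 1 window region of 44 that passed the strength test at 24 h against 0 h, with a normal-score difference of 2.40 ± 0.32 (SE, 95% interval 1.68 to 3.13, limma adjusted p = 0.0112). Of all common regions, 2.35% passed as higher and 2.71% as lower, and no window region passed as lower. With 44 regions, 1 call is close to those shares. At an unadjusted p under 0.05, 3 window regions were higher and 4 lower, against 9.93% and 9.84% of all common regions. Over 11 alternatives, the lowest limma adjusted p, 0.00773, came under the prior variance trend, chosen after seeing the data. Using only the compared libraries gave 0.0194, and leaving out either 1 h library is the same fit. The call was lost without the second 0 h library (difference 2.29) and without the second 24 h library (2.18). Each of those fits leaves 1 library at a compared time. At 1 h against 0 h the difference was 0.95 (limma adjusted p = 0.258), and at 24 h against 1 h it was 1.45 (adjusted p = 0.237). No region of the series passed in either of those comparisons, where the share was 0% in both directions. Under the prior variance trend, chosen after seeing the data, 62 regions of the series passed as higher and 204 as lower at 1 h against 0 h, and with common regions of −log10 q of at least 5 it was 33 and 129, 0 of them in the windows. At an unadjusted p under 0.05, 1 window region was higher and 4 were lower at 1 h against 0 h, against 6.14% and 6.68% of all common regions. For 24 h against 1 h those counts were 3 and 0, against 5.59% and 5.75%.

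The other CTCF gene-body region held throughout, at +1.2 kb (chr16:67596946-67597838), had folds of 3.56 and 3.99 at 0 h, 3.49 and 4.41 at 1 h, then 3.59 and 4.15 at 24 h. This region lies next to the promoter region, with a local background of 13.3 and 8.01 at 0 h, against 1.62 and 0.915 at +32.8 kb. Its pileups were 50 and 35 at 0 h, 45 and 55 at 1 h, then 38 and 35 at 24 h. The low fold is therefore not a low number of reads. That fold stayed low at all times, and the region did not pass (24 h against 0 h 0.11 ± 0.28, limma adjusted p = 0.890). The 2 persistent sites of 1 gene therefore differed in their values over time, and their difference was not tested.

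A region counted as lost when both libraries of the first time and neither of the second held a peak there, and as gained the other way round. At 24 h against 0 h, 5 of the 59 window regions held by both 0 h libraries were lost (8.47%), against 13.1% over the series. In the same comparison 8 of the 56 held by both 24 h libraries were gained (14.3%), against 6.54%. No promoter was lost or gained in any comparison. Of the gene-body regions, 3 of 18 were lost and 4 of 15 gained, and 5 of the 8 gained regions lay in the STAG1 window, so the gained share rests largely on 1 gene. Leaving out either 0 h library raised the lost count to 13 (first) and 18 (second), and leaving out the second 24 h library raised it to 12, since fewer libraries then had to agree. Over the series, the lost share of all regions was 14.8%, 13.6% and 12.3% in those cases. With every library it was 7.76%, beside 5 of all 112 window regions. The gained count was 15 without the first 24 h library, where the share of all regions was 9.73%, against 3.39% with every library. The 24 h libraries were shallower than those at 0 h and their lists shorter, and with every list shortened to 101755 peaks the counts were 4 lost and 9 gained, with 6.26% and 5.33% of all regions. Many of the calls below rest on weak peaks: counting only peaks with a −log10 q of at least 5, 13 calls on named regions held and 13 ended, and at 10 or more 2 held and 24 ended.

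NIPBL lost the strongest of these sites. The region at +73.3 kb (chr5:36949385-36949640) had folds of 8.78 and 9.40 at 0 h and no peak in any of the 4 later libraries. Against 0 h pileups of 97 and 72 at the NIPBL promoter, those of this region were 22 and 17. Averaged over the libraries that hold each region, here those at 0 h only, it had the highest rank of the NIPBL window, though at 0 h its mean fold (9.09) was below that of the +126.2 kb region (10.1), the +214.6 kb region (9.94) and the promoter (9.20). It was the 1 lost window region whose −log10 q was at least 10 in both 0 h libraries (15.9 and 14.4). A second NIPBL region, at −43.5 kb in the upstream flank (chr5:36832564-36832892), followed the same course with folds of 5.35 and 6.27 at 0 h. NIPBL also gained a region at +106.2 kb (chr5:36982265-36982456), which had folds of 5.78 and 6.13 at 24 h and no peak at 0 h or 1 h. The NIPBL gene body thus held 1 lost and 1 gained site, while its promoter kept its peak.

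RAD21 lost a gene-body region at +9.4 kb (chr8:117877271-117877790) in steps. Its folds were 6.29 and 6.49 at 0 h and 3.27 and 3.60 at 1 h, with no peak at 24 h. A neighbouring RAD21 region at +8.1 kb (chr8:117878653-117879044), the strongest one outside that promoter, was kept, with folds of 6.44 and 8.97 at 0 h, 8.0 and 7.12 at 1 h, then 10.8 and 8.98 at 24 h. These adjacent sites differed in outcome, and the second did not pass the strength test (24 h against 0 h 0.68 ± 0.30, limma adjusted p = 0.263). A weak RAD21 region at +59.5 kb downstream (chr8:117827145-117827653), with folds of 3.75 and 4.05 at 1 h and 3.82 in the first 0 h library only, was lost between 1 h and 24 h. Both RAD21 calls for 24 h against 1 h ended at a −log10 q of at least 5, and the loss at +9.4 kb for 24 h against 0 h did not.

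STAG1, with the most regions (33), had 6 calls at 24 h against 0 h, and NIPBL had 3 among 12 regions. The STAG1 region at +31.9 kb (chr3:136438953-136439352) was lost by 1 h, with folds of 6.64 and 5.74 at 0 h and no peak later. Regions at +364.9 kb (chr3:136106074-136106302) and +233.8 kb (chr3:136237130-136237508) were gained at 24 h, with 24 h folds of 7.04 and 5.57 for the first and 10.1 and 6.64 for the second. The +233.8 kb region already had a peak of fold 5.42 in the first 1 h library, and neither had a peak at 0 h.

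STAG1's +62.4 kb region (chr3:136408483-136408771) was gained by 1 h and kept, with folds of 4.58 and 3.36 at 1 h and 7.22 and 4.60 at 24 h. Its +76.6 kb region (chr3:136394315-136394567) was open at 1 h only, with folds of 3.75 and 3.36. In the upstream flank of STAG1, a region at −20.6 kb (chr3:136491602-136491832) was gained at 24 h with folds of 5.30 and 4.60. The 1 h calls at +62.4 and +76.6 kb and the call at −20.6 kb ended at a −log10 q of at least 5. The last gained region of the STAG1 window, at −35.4 kb, had folds of 3.73 and 3.39 at 24 h and lies outside the rule for named regions. That region already had a peak of fold 4.13 in the first 1 h library. The STAG1 site with the strongest signal, at +408.2 kb near the inferred 3′ end (chr3:136062369-136063279), was open throughout with folds of 13.2 and 16.6 at 0 h, 13.3 and 13.3 at 1 h, then 15.6 and 17.2 at 24 h.

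**Figure D4:**
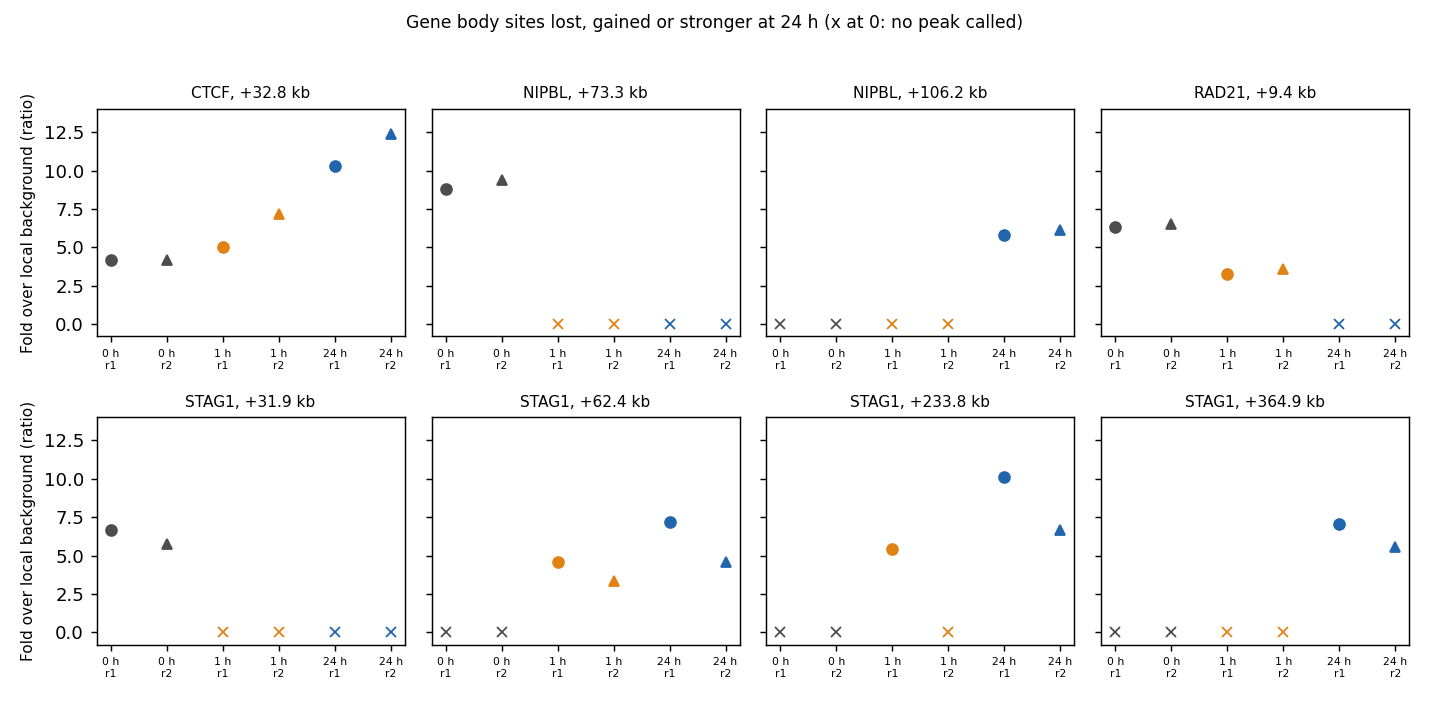
Authors' fold in each of the 6 libraries for the CTCF gene-body site that passed the strength test and for the 7 gene-body sites lost or gained at 24 h against 0 h in NIPBL, RAD21 and STAG1. Crosses at 0 mark libraries without a called peak. CTCF at +32.8 kb runs up to 10.3 and 12.4 at 24 h, NIPBL at +73.3 kb is present at 0 h only, and RAD21 at +9.4 kb has folds of 3.27 and 3.60 at 1 h and is absent at 24 h.

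In the CTCF downstream flank, calls of opposite direction lay next to each other. The region at +121.8 kb (chr16:67717796-67718169) had no peak at 0 h, folds of 5.49 and 4.62 at 1 h, then 7.16 and 5.53 at 24 h. The region at +122.7 kb (chr16:67718648-67719026), 478 bp away, had folds of 5.30 and 4.12 at 0 h and 4.38 and 4.51 at 1 h, and no peak at 24 h. Both held peaks in the 1 h libraries, the one time at which they were seen together. A further CTCF region at +126.9 kb (chr16:67722928-67723191) was open at 1 h only, with folds of 3.75 and 4.62. WAPL gained 1 upstream region at −6.1 kb (chr10:88287643-88288028), with folds of 4.83 and 5.11 at 24 h and none before. At a −log10 q of at least 5, the CTCF loss at +122.7 kb, the 1 h gain at +121.8 kb, the calls at +126.9 kb and the WAPL gain all ended, while the gain at +121.8 kb for 24 h against 0 h held.

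MAU2 and SMC3 had no region called lost or gained at any time. The strongest site outside MAU2's promoter lay at +65.5 kb in the flank on the GATAD2A side (chr19:19496003-19497019). Its folds were 12.6 and 13.2 at 0 h, 13.0 and 14.1 at 1 h, then 12.0 and 13.2 at 24 h. Whether it is a promoter of GATAD2A was not tested. For SMC3 the strongest site outside the promoter was at −36.0 kb (chr10:112289950-112290639). The folds there were 13.2 and 12.5 at 0 h, 11.1 and 9.80 at 1 h, then 8.79 and 11.6 at 24 h. The percentiles of the 1 h and 0 h libraries overlapped at this SMC3 region. Both 24 h libraries (58.0 and 79.9) lay below both 0 h libraries (90.9 and 80.1), the closest pair by a small margin. The same held at 22.1% of all common regions. The difference at 24 h against 0 h, −0.57 ± 0.32 on the normal-score scale (SE, limma adjusted p = 0.391), did not pass. SMC3's single gene-body region, at +34.1 kb (chr10:112360274-112360498), had a peak in 4 libraries, with folds of 4.20 and 9.92 at 0 h, 4.20 in the second 1 h library and 4.09 in the second 24 h library.

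The strongest sites outside the WAPL and CTCF promoters, both upstream, held a peak in all 6 libraries. WAPL's region at −13.6 kb (chr10:88294940-88295837) had folds of 12.7 and 16.1 at 0 h, 12.1 and 14.1 at 1 h, then 14.8 and 13.3 at 24 h. CTCF's region at −40.8 kb (chr16:67554890-67555781) had folds of 10.8 and 12.4 at 0 h, 12.1 and 11.1 at 1 h, then 11.1 and 10.3 at 24 h.

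Fewer window regions were called at 1 h than at 24 h. At 1 h against 0 h, 3 of 59 regions were lost (5.08%), against 7.48% over the series, and 4 of 60 were gained (6.67%), against 3.93%. The lost count was 9 without the first 0 h library, 14 without the second and 6 without the second 1 h library, while the lost share of all regions was 10.8%, 9.35% and 7.34%, against 4.43% with every library. The gained count was 7 without the first 1 h library and 14 without the second, with 7.52% and 6.45% of all regions, against 2.21%. The lost regions were those of NIPBL at +73.3 and −43.5 kb and of STAG1 at +31.9 kb. At 24 h against 1 h, 5 of 60 were lost (8.33%), against 6.42%, and 4 of 56 were gained (7.14%), against 3.85%. The lost count was 10 without the first 1 h library, 12 without the second and 11 without the second 24 h library, with 9.79%, 8.74% and 7.82% of all regions, against 3.61% with every library. The gained count was 9 without the first 24 h library, with 8.09%, against 2.00%. The counts at 1 h and 24 h share the 0 h libraries, and those between 1 h and 24 h share libraries with both, so they are not independent. Among the 44 regions held by all 6 libraries, both 24 h libraries ranked above both 0 h libraries at 11 and below at 11, shares of the same order as the 25.9% and 22.1% over all common regions.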

How the data were processed

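ATAC-seq peak lists of 6 22Rv1 libraries were used, 1 per library. Per the submitters' processing notes, hg19 served as the build and FastQC, fastp, Bowtie2 and MACS2 as tools, with no versions or roles. Each peak's fold (a ratio), −log10 p, −log10 q and score were deposited by the authors. Folds of different lists are not on one scale and are printed as values only; comparisons between libraries use ranks. No read counts were used. Whole-number pileups were recovered from the fold and −log10 p for 422 of 422 window peaks (tolerance 0.001). Relative depth is the most common background recovered in a list divided by the length of its shortest peak. It takes that length as the one over which tags were piled up, which was not checked. Depth limits which weak peaks are called.

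The members and lists were chosen with earlier results of these data known. Regions were merged and called in Python 3.11.15. Strength was tested in limma 3.58.1 (R 4.3.3) on normal scores over 6 libraries with 3 residual degrees of freedom and tested on simulated data. Named regions are the 7 promoters, the strongest other region of each window, lost and gained regions (all where a comparison has at most 10, otherwise the top 5 in each direction by mean rank) and regions past the strength test. Regions tied to other cohesin genes were not analysed here. Alternatives were other peak thresholds, overlaps, list lengths, scales and left-out libraries.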

Additional observations from a re-analysis of the deposited data

How the results depend on the processing

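The promoters kept a peak in all 6 libraries. Of 252 promoter values, 251 moved by less than the standard error of the main limma difference, the exception being WAPL under the −log10 q. Many of these values could not move, because some settings keep the difference by construction. Those settings are the replicate block, the variance trend, the fit of the compared libraries only and the set with −log10 q of at least 5. Leaving out a library of the time not compared also keeps it. Had the highest-ranked region of each window by fold been taken, 1 of 7 would have been a promoter. Counts of lost and gained regions depended on the definition (24 h and 1 h are each against 0 h unless stated). Brackets give the share of all regions of the series, while window counts are printed without a denominator. At a −log10 q of at least 5, 24 h gained 5 (3.99%), 1 h lost 5 (5.52%) and gained 2 (2.05%), and 24 h against 1 h lost 2 (3.52%) and gained 2 (2.51%). At 10 or more, 24 h lost 9 (11%) and gained 2 (3.70%), 1 h gained 0 (2.22%), and 24 h against 1 h lost 3 (4.38%) and gained 0 (2.00%). With 50% cover, 24 h lost 10 (8.68%), 1 h gained 8 (4.11%), and 24 h against 1 h lost 9 (6.49%). Strong peaks against no peak left 1 lost (1.3%) and 0 gained (0.204%) at 24 h, 1 (0.485%) and 0 (0.0101%) at 1 h, and 0 (0.0268%) and 0 (0.0411%) for 24 h against 1 h. Lists of one length left 1 lost (3.04%) for 24 h against 1 h. They also turned the difference in regions per library to 2 for 24 h against 0 h and 2 for 24 h against 1 h, as did leaving out the first 24 h library (1 and 2). The cause was not tested.

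With 1 library left out, which needs fewer libraries to agree, 24 h lost 7 to 18 and gained 8 to 15, 1 h lost 4 to 14 and gained 6 to 14, and 24 h against 1 h lost 6 to 12 and gained 4 to 9. Differences in regions per library ran from −15 to 1 (24 h against 0 h), −2 to 0 (1 h against 0 h) and −14 to 2 (24 h against 1 h). The strength test called 0 to 1 higher and 0 to 1 lower at 24 h. It called 0 higher in the set with −log10 q of at least 5, from which the CTCF site is left out by construction, and 1 lower (STAG1 at +267.5 kb) on log2 fold.

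The labels do not say whether same-numbered libraries belong together. Their deviations correlated at 0.05, 0.05 and 0.02, so no shared replicate effect was seen. With 2 libraries per time, this cannot decide whether the libraries were paired. With the replicate block, the strength test still called 1 region higher and 0 lower at 24 h, CTCF at +32.8 kb with a limma adjusted p of 0.0186. Differences in regions per library, −7, −1 and −6, cannot change with pairing in this balanced design. Each had a sign-flip exact p of 1, where 0.5 is the smallest possible. Depth is known only in relative terms, and a region without a peak may be open below the calling threshold.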

Other observations

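Several other window regions had values that differed between times, and they were chosen after their values were seen. None is a call. NIPBL's region at +126.2 kb (chr5:37002014-37002812) had folds of 11.3 and 8.86 at 0 h, 8.75 and 9.20 at 1 h, then 4.33 in the first 24 h library, with no peak in the second. STAG1's region at +184.5 kb (chr3:136286272-136286864) had folds of 10.1 and 11.2 at 0 h, 5.00 and 7.57 at 1 h, then 5.62 in the second 24 h library only. SMC3's downstream region at +63.4 kb (chr10:112389396-112389990) had 10.7 and 10.5 at 0 h, 6.25 and 7.99 at 1 h, then 5.62 in the second 24 h library only. None of the 3 entered the strength test, which needs a peak in all 6 libraries.

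STAG1's region at +267.5 kb (chr3:136203269-136203785) had folds of 9.16 and 8.35 at 0 h, 5.83 and 5.89 at 1 h, then 4.81 and 5.62 at 24 h. In percentile, all 4 later libraries lay below both 0 h libraries. At 24 h against 0 h its normal-score difference was −1.10 ± 0.27 (SE, limma adjusted p = 0.0568), and on log2 fold the adjusted p was 0.0467. STAG1's region at +360.5 kb (chr3:136110404-136110837) had 9.03 and 11.1 at 0 h, 6.24 and 7.93 at 1 h, then 6.38 and 6.87 at 24 h (−0.84 ± 0.27, limma adjusted p = 0.118). STAG1's region at +126.8 kb (chr3:136343962-136344616) was low at 1 h only, with folds of 13.1 and 15.9 at 0 h, 10.3 and 10.8 at 1 h, then 13.3 and 14.2 at 24 h (1 h against 0 h −0.73 ± 0.24, limma adjusted p = 0.255).

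NIPBL's downstream region at +214.6 kb (chr5:37090456-37091110), on the CPLANE1 side, had folds of 12.2 and 7.73 at 0 h, 6.45 and 6.80 at 1 h, then 5.20 and 4.34 at 24 h (−1.63 ± 0.42 at 24 h against 0 h, limma adjusted p = 0.0667). Leaving out the first 0 h library gave −0.95 with an adjusted p of 0.184, leaving out the second gave −2.31 with 0.0454, and leaving out the 24 h libraries in turn gave adjusted p values of 0.129 and 0.235. NIPBL's gene-body region at +11.7 kb (chr5:36887682-36888025) went the other way, with 6.11 and 4.70 at 0 h, 5.83 and 8.41 at 1 h, then 8.18 and 9.20 at 24 h (1.16 ± 0.36, limma adjusted p = 0.112). At an unadjusted p under 0.05, 3 window regions were higher and 4 lower at 24 h against 0 h, of 44, against 9.93% and 9.84% of all common regions.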
